A study of Mus musculus with 3 samples.

Results

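The neuronal identity transcription factors are 37 of 21887 protein-coding genes, chosen by name as factors that set or keep the type of a forebrain neuron. ATRX peaks were counted for a gene when they overlapped it or the 5 kb on either side, by GRCm38 gene spans. This gave 451 of the 112153 control peaks and 454 of the 105674 MICAL1-FL peaks. The genes were taken in 4 groups: 13 cortical layer factors, 8 interneuron and ventral factors, 6 progenitor factors and 10 differentiation and broad neuronal factors. The study profiled binding of ATRX, a chromatin remodeller, by ChIP-seq in primary neurons from C57BL6/J mouse embryos (E15.5-17.5), given lentivirus at day 5 of culture and used at day 14. Control neurons are labelled mCherry and the other neurons MICAL1-FL, MICAL1 being an enzyme that oxidises actin. Each condition had a single ChIP library (n = 1), so differences between conditions have no replicate check and no test. An input sample of control neurons was not analysed here. Each culture may hold several cell types, and a peak list carries no expression, so the neuronal label and the share of each cell type could not be checked. The labels give neither the lentiviral promoter nor the number of embryos, cultures or cells behind a library. In the list labelled MICAL1-FL every peak is named TBC_M2, a name that does not match the label, and in the control list CTL. The sample title was followed, and every MICAL1-FL value below rests on it.

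Peaks were shallow. Depth was inferred from the authors' fold and p, and it was recovered for 99.97% of peaks in each list. The median peak held 5 fragments in both lists, and member peaks had the same median. Among member peaks, 3 of the control list and 0 of the MICAL1-FL list had a q-value below 0.05. Over all protein-coding genes, 223 of 54233 control and 159 of 50260 MICAL1-FL peaks had one. Such peaks are rare in both lists, so 3 against 0 is not read as a difference between conditions. Intervals are 95% exact intervals that cover counting error only.

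Identity factors are known to act in layers of control. Progenitor factors such as Pax6 and Emx2 pattern the cortical germinal zone, proneural factors such as Neurog2 start differentiation, and layer factors such as Bcl11b, Fezf2, Tbr1 and Cux2 divide projection neurons into types by their targets. The Dlx family and Lhx6 do the same for inhibitory neurons born in the ventral forebrain. ATRX is known to place the histone variant H3.3 together with DAXX, mainly at repeats, and G-rich sequence that can fold into quadruplexes is among its known sites.

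Of the 37 genes, 32 had an entry in the RefSeq table of promoter windows, which run from 250 bases before to 50 after a start (GRCm38.p6). A control peak lay on a window of 8 of these 32 genes, or 25% (background over protein-coding genes 11.2%), and a MICAL1-FL peak at 9, or 28.1% (background 11.7%). Peaks of both lists lay on the same window at 4 genes, Bcl11a, Pou3f2, Prox1 and Tle4, or 12.5% (background 2.65%). A gene counted when any of its windows had a peak, so genes with more windows had more chances to count. The 32 genes had 52 windows, and the 17492 protein-coding genes with an entry had 21263. Counted by window, 36 of the 52 and 17328 of the 21263 had no peak. The identity factors had 16 windows with a peak, 3 at the outermost start of the gene and 13 at starts inside it. A start counted as outermost only when it matched the end of the gene span to the base. Windows without a peak were not divided in this way, so the split shows no preference for inner starts. The 250 bases before the 3 outermost starts are printed, since a start inside a gene can lie within a longer transcript. Pou3f2 (chr4:22488367-22488616, minus strand) had peaks of both lists, and Emx1 (chr6:85187681-85187930, plus strand) and Pax6 (chr2:105668646-105668895, plus strand) a MICAL1-FL peak. Capitals mark CG dinucleotides, and each sequence reads 5′ to 3′ along the gene.
Pou3f2: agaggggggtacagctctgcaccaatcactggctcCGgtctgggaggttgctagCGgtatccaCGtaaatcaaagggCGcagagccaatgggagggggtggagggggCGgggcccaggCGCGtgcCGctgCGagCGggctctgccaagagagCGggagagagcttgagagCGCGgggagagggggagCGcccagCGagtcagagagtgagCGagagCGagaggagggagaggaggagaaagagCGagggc
Emx1: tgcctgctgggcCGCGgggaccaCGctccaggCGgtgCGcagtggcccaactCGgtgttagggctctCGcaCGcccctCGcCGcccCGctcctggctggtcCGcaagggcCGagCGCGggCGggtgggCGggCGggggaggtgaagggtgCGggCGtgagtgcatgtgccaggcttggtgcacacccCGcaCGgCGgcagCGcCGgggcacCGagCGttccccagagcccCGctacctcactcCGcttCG
Pax6: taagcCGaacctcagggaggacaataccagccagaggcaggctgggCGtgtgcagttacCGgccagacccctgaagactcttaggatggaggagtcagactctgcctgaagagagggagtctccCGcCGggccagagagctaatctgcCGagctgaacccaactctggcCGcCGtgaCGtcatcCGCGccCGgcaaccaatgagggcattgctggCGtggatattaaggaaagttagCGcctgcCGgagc

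At Pou3f2, which encodes a POU factor of upper-layer neurons, the control peak covered 135 of the printed bases and the MICAL1-FL peak 11, both at the end next to the start. At Emx1, a homeobox factor of the dorsal telencephalon, the MICAL1-FL peak covered all 250. At Pax6 it covered the last 24. Pou3f2 is thus the only 1 of the 3 with a control peak.

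The other windows with peaks of both lists were at inner starts. At Tle4, a corepressor of deep-layer neurons, the 250 bases at chr19:14597214-14597463 were covered whole by the control peak and for 37 bases by the MICAL1-FL peak. At Prox1 (chr1:190169516-190169765) the control peak spanned the start and covered 114 bases. The MICAL1-FL peak began at the far end and covered 1, so the peaks did not overlap each other. At Bcl11a (chr11:24080445-24080694), a zinc finger factor, the MICAL1-FL peak covered 33 bases, and the control peak touched only the bases after the start, with a p of 0.0469. A second Pax6 window, at an inner start, had a MICAL1-FL peak over 148 bases, and inner starts of Cux1 and Lhx6 had a control peak over 226 and 132. Those last 3 were chosen after their values were seen.

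Windows with peaks were richer in CG. Over all 21263 windows of protein-coding genes, those with no peak had a median of 7 CG and 54% G or C in the 250 bases, and those with peaks of both lists 22 CG and 68.4%. Among the windows of the identity factors, the 16 with a peak had a median of 15 CG and 59.4% G or C, and the 36 without had 7 and 51%. A run of 4 GGG with spacers of 1 to 7 bases, on either strand, was present in 19.8% of all windows and in 42.7% of those with peaks of both lists. Of the printed sequences, Pou3f2 and Emx1 held it. The telomere hexamer TTAGGG, on either strand, was in 9.36% of all windows, 7.16% of those with peaks of both lists and 9.65% of those with none. Of the printed sequences, Emx1 held it. How base composition bears on where peaks were called was not tested.

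Over whole genes, identity factors carried more peaks per length than protein-coding genes in general, in both libraries. Their spans held 66.0 control and 66.4 MICAL1-FL peaks per Mb, where all protein-coding genes had 45.9 and 42.5. All 37 genes had a control peak (background 64%), and 35 had a MICAL1-FL peak (background 61.2%). The 2 without were Pou3f3, a POU factor with 3 control peaks, and Dlx2, a homeobox factor with 2. An upper limit of 3.69 peaks goes with a count of 0, so neither count shows an absence. No member lacked a peak in both lists (background 22.9%). Among all genes that share was 35.7% under 20 kb, 10.2% at 20 to 100 kb and 0.782% over 100 kb. Members had a median length of 52.8 kb, against 17.2 kb for all protein-coding genes. These backgrounds of 64%, 61.2% and 22.9% are therefore not matched for length.

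Long members had more peaks, but short members stood higher above other genes of their length. The 15 members under 20 kb had medians of 112 control and 137 MICAL1-FL peaks per Mb, where the median gene of that length had 0 in each list. At the short gene Neurod6, 1 control peak made 74.4 per Mb, so densities under 20 kb rest on few peaks a gene. The 7 members of 20 to 100 kb had 103 and 145 per Mb, against 31.4 and 30.0 for genes of that length. The 15 members over 100 kb had 53.3 and 63.0 per Mb, against 45.7 and 44.7. Of these, 10 lay above the median gene by control and 11 by MICAL1-FL peaks. Foxp2, a forkhead factor of deep layers linked to vocal behaviour, was low for its length, with 18.2 control and 30.9 MICAL1-FL peaks per Mb. Tle4, with 5 and 4 peaks over 150 kb, was low too.

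**Figure D1:**
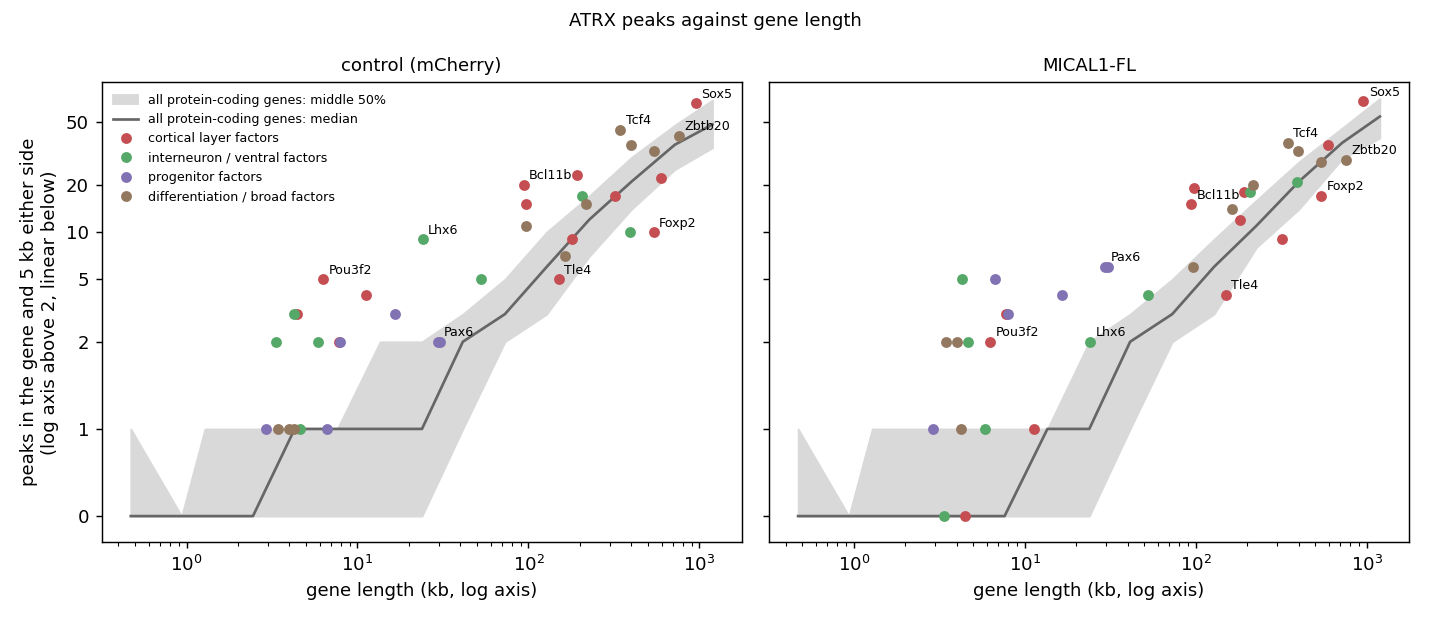
Peaks in each gene and 5 kb either side (vertical axis, logarithmic above 2 and linear below) against gene length in kb (logarithmic axis), for the control and MICAL1-FL lists. Coloured points are the 37 identity factors, and the grey line and band are the median and middle 50% of all protein-coding genes; members under 100 kb mostly sit above the line, while Foxp2 and Tle4 sit below it.

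The excess lay in the first 5 kb of the gene and in both flanks more than in the rest of the gene. Over the 32 members with a known strand, the first 5 kb of the gene held 33 control summits, or 217 per Mb (149 to 304), and 27 MICAL1-FL summits, or 177 per Mb (117 to 258). All protein-coding genes had 77.9 and 73.2 per Mb there. The 5 kb upstream held 112.5 per Mb (66.7 to 178) and 119 per Mb (71.5 to 185), against 42.8 and 40.9. The 5 kb downstream held 93.75 per Mb (52.5 to 155) and 106 per Mb (61.9 to 170), against 38.4 and 34.4. The rest of the gene held 59.8 per Mb (53.3 to 66.8) and 59.0 per Mb (52.6 to 66.0), against 42.3 and 39.3. The order of the zones was alike in both libraries, with the first 5 kb highest and the gene body lowest. Summits of members within 500 bp of a start were 2.95 (control) and 3.16 (MICAL1-FL) times as dense as those 2500 to 5000 bp away. All protein-coding genes had 4.10 and 4.34, and the lower member ratios rest on 13 and 12 summits near starts.

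**Figure D2:**
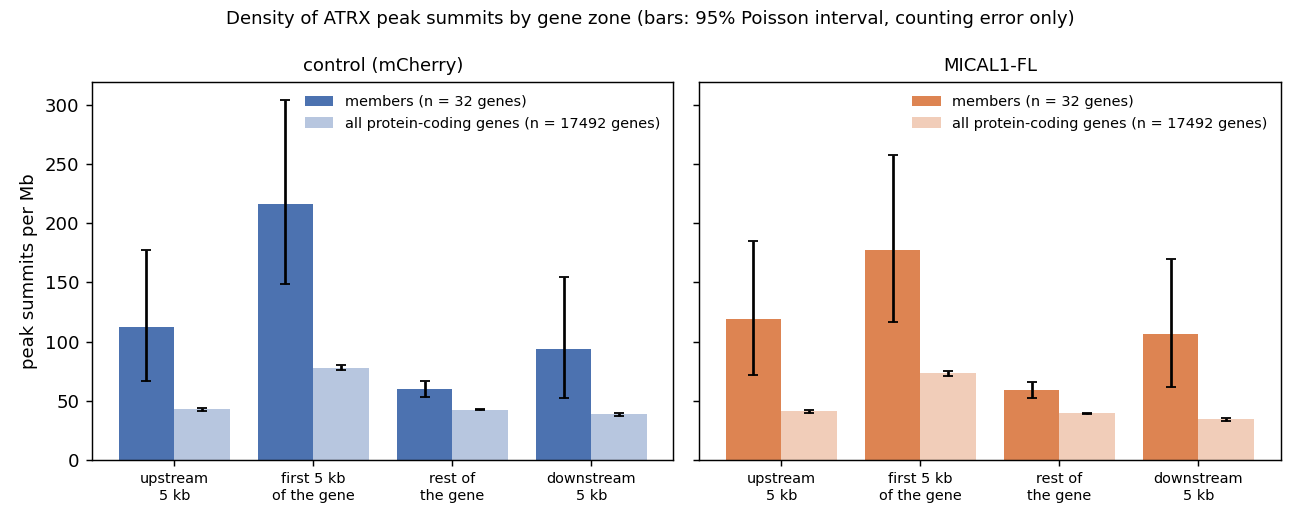
Peak summits per Mb (vertical axis) in 4 gene zones for 32 identity factors and 17492 protein-coding genes with a known strand, in the control and MICAL1-FL lists; error bars are 95% Poisson intervals of counting error. Members reached 217 and 177 summits per Mb in the first 5 kb of the gene, where all genes had 77.9 and 73.2.

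Peaks within 1 kb of either gene end were frequent among members. The control list had one at 24 of 37 genes, or 64.9% (background 29.3%), and the MICAL1-FL list at 22, or 59.5% (background 27.9%). Both lists had one at 13 genes, or 35.1% (background 12.3%). End peaks went with length among all genes, reaching 46.8% and 44.7% over 100 kb, where members had them at 13 and 8 of 15. At 20 to 100 kb members had them at 2 and 5 of 7, against 32.5% and 31.3% of genes of that length. Under 20 kb members had them at 9 and 9 of 15, against 23.7% and 22.3%. Control end peaks were thus not in excess at 20 to 100 kb. Differentiation factors had MICAL1-FL end peaks at only 2 of 10. Control end peaks alone were at 11 genes and MICAL1-FL end peaks alone at 9. These 2 counts have no share over all protein-coding genes beside them, so they are not read as a difference between conditions. Neurod1 and Neurod6, bHLH factors of differentiating neurons, and Nfix and Zbtb20 had none. The end peaks of members had median depths of 6 (control) and 6.5 fragments (MICAL1-FL).

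The cortical layer factors had 201 control peaks and 204 MICAL1-FL peaks, or 61.2 and 62.1 per Mb, with a ratio of 1.01 (0.831 to 1.24), where all protein-coding genes had 0.927 (0.916 to 0.938). Sox5, an SRY-box factor that delays the output identity of deep-layer neurons, had 66 control and 68 MICAL1-FL peaks, more than any other member. Foxp1, a forkhead factor, had 22 and 36 peaks, and Foxp2 had 10 and 17. Cux1 and Cux2, homeobox factors of upper layers, had 17 and 9 peaks and 23 and 18 peaks. The layer list thus held members with more peaks in either library, and the counting interval of every ratio included 1.

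Bcl11b, a zinc finger factor needed by corticospinal neurons, had 20 control and 15 MICAL1-FL peaks over 93.7 kb. That is 193 and 145 peaks per Mb. Its paralogue Bcl11a had 15 and 19 peaks, or 140 and 178 per Mb. Both genes were dense in both libraries, at over 3 times the density of all protein-coding genes. Rorb, an orphan nuclear receptor of the input layer, had 9 and 12 peaks, and Tle4 had 5 and 4. Among the short genes, Pou3f2 had 5 control and 2 MICAL1-FL peaks, and Tbr1, a T-box factor of deep layers, had 4 and 1. Fezf2, a zinc finger factor that directs subcerebral projection, had 2 and 3.

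Both libraries had peaks at the start of Pou3f2. Control peaks lay on chromosome 4 at 22487366 to 22487687 and at 22488053 to 22488501, with depths of 7 and 9 fragments. A single MICAL1-FL peak at 22487536 to 22488377, 10 fragments deep, overlapped both. Its summit lay 8 bp from that of the deeper control peak. At the Foxp1 start a control peak of 10 fragments at chromosome 6 99521544 to 99522503 had a p of 1.2e-06 and a q of 0.0338, and no MICAL1-FL peak overlapped it. The nearest one, at 99519884 to 99520966, was 8 fragments deep with a p of 0.00011. At Foxp2 the deepest MICAL1-FL peak, 9 fragments at 14901464 to 14901795 on chromosome 6, had no control counterpart, while a pair of 7 fragments each overlapped at 14900000 to 14900351 in control coordinates.

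**Figure D3:**
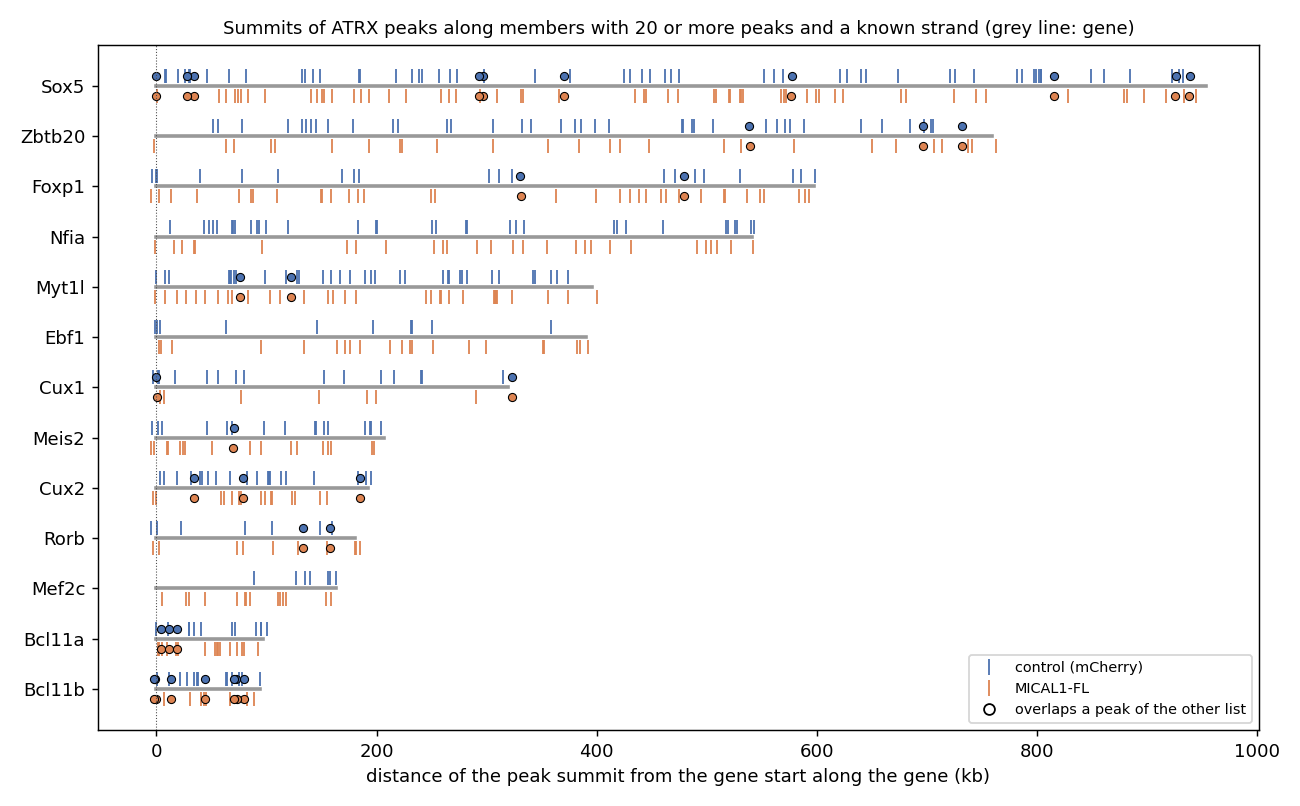
Distance of each peak summit from the gene start in kb (horizontal axis) for the 13 members with 20 or more peaks and a known strand; control summits are above each grey gene line, MICAL1-FL summits below it, and filled circles mark peaks that overlap a peak of the other list. Circles are most frequent on Sox5 (10 pairs) and Bcl11b (7 pairs), and absent from Nfia, Ebf1 and Mef2c.

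The share of peaks found in both libraries was higher at layer factors than at the other members pooled. Of the control peaks at layer factors, 36 overlapped a MICAL1-FL peak, or 17.9% (12.9 to 23.9), and of the MICAL1-FL peaks 35 met a control peak, or 17.2% (12.3 to 23.0). At the other members pooled, 15 of 250 control and 15 of 250 MICAL1-FL peaks did, or 6% (3.40 to 9.70) in each list. These intervals did not overlap those of the layer factors, but they treat the peaks of a gene as independent. Progenitor factors alone had 18.2% (2.28 to 51.8) and 8% (0.984 to 26.0), on 2 shared peaks in each list. Interneuron factors had 4.17% and 3.77%, and differentiation factors 5.76% and 6.40%. The 65 other neuronal transcription factors described below had 12.6% (9.55 to 16.1) and 11.6% (8.79 to 14.9), which overlapped the layer intervals. All protein-coding genes had 8.06% and 8.69%. Of the 51 overlapping pairs, 36 were at 11 layer factors, 11 at 4 differentiation factors and 2 each at interneuron and progenitor factors. Without Bcl11b and Sox5 the layer shares were 16.5% (10.3 to 24.6) and 14.9% (9.06 to 22.5), and the MICAL1-FL interval then overlapped that of the other members. The background of layer peaks also differed: 50% of MICAL1-FL peaks lay at the lowest background of that list (42.9 to 57.1), against 64.0% over all protein-coding genes. In the control list the values were 62.2% and 60.7%. The part of background and of local peak density in the sharing was not tested.

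In 33 of the 51 pairs, at 17 genes, both peaks had a p of 0.01 or less. These were 6 at Sox5, 5 at Bcl11b, 4 at Tcf4, 2 each at Cux1, Nfix, Pou3f2 and Zbtb20, and 1 each at Bcl11a, Dlx1, Emx2, Foxp1, Foxp2, Myt1l, Pax6, Rorb, Tbr1 and Tle4. Summits of 31 pairs lay within 250 bp of each other. At 8 of the 13 genes with an end peak in both lists, end peaks overlapped: Bcl11b, Cux1, Dlx1, Emx2, Foxp2, Pou3f2, Sox5 and Tle4. At Dlx5, Neurog2, Nfia, Nfib and Rorb they did not. These counts of pairs and of overlapping end peaks have no share over all protein-coding genes beside them, so they describe the members only.

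The interneuron and ventral factors had 48 control peaks and 53 MICAL1-FL peaks, with a ratio of 1.10 (0.733 to 1.67). Ebf1, a helix-loop-helix factor of striatal neurons, had 10 and 21 peaks, a ratio of 2.10 (0.947 to 4.99). Lhx6, a LIM homeobox factor of interneurons from the medial ganglionic eminence, went the other way, with 9 and 2 peaks and a ratio of 0.222 (0.0234 to 1.07). Meis2, a homeobox factor of the ventral forebrain, had 17 and 18. Prox1, a homeobox factor of dentate granule cells and some interneurons, had 5 and 4. Ebf1 and Lhx6 thus differed in opposite directions, and both intervals included 1.

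The Dlx genes, homeobox factors that start the inhibitory programme, lie in 2 pairs of neighbours whose flanks overlap. Dlx1 had 2 control and 1 MICAL1-FL peaks, and Dlx2 had 2 and 0. Dlx5 had 3 and 5, and Dlx6 had 1 and 2, with 1 control peak counted for both of the latter. At Dlx1 the lists met: a control peak at chromosome 2 71532511 to 71533129 and a MICAL1-FL peak at 71532526 to 71533073 had summits 21 bp apart, with depths of 5 and 6 fragments. Dlx5 held the MICAL1-FL member peak with the smallest p along with Foxp2, 9 fragments deep at chromosome 6 6881455 to 6881881 with a fold of 3.82 and a p of 7.8e-06. No control peak overlapped it.

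The progenitor factors were the group with the most unequal counts, at 11 control and 25 MICAL1-FL peaks. The ratio was 2.27 (1.08 to 5.12), the only interval of the 4 groups that left out 1. Pax6, a paired-box factor of radial glia, had 2 control and 6 MICAL1-FL peaks, and the LIM homeobox factor Lhx2 had 2 and 6. The homeobox factor Emx2 had 1 and 5, and its paralogue Emx1 had 3 and 4. Eomes, a T-box factor of intermediate progenitors, had 2 and 3, and Neurog2 had 1 and 1. The MICAL1-FL count was higher at 5 genes and equal at 1.

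The counts behind this are small. With Pax6, Lhx2 or Emx2 left out, the ratio was 2.11 (0.910 to 5.30), 2.11 (0.910 to 5.30) and 2.00 (0.894 to 4.78), so that each interval then included 1. Among peaks with a p of 0.01 or less, the counts were 6 and 18, a ratio of 3 (1.14 to 9.23). With 10 kb flanks they were 17 and 32, and with no flank 7 and 17, where the interval was 0.957 to 6.93. A MICAL1-FL peak lay on a promoter window of 3 of the 6 genes, Emx1, Neurog2 and Pax6, and a control peak on none, where the background is 11.7% and 11.2%. With 6 genes, a count of 0 is no evidence of a difference. Of the MICAL1-FL peaks at progenitor factors, 40% lay at the lowest background (21.1 to 61.3), and of the control peaks 54.5% (23.4 to 83.3). Whether the level of background had a part in the counts was not tested.

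At Pax6 the MICAL1-FL peaks began at the start of the gene, with 7 fragments at chromosome 2 105668872 to 105669149 and 8 fragments at 105669955 to 105670448, where the control list had no peak. The lists met once, at 105673693 to 105674890 in control coordinates, with 5 and 7 fragments. At Emx2 they met once too, at chromosome 19 59459333 to 59459673, with 7 and 5 fragments. The other 4 MICAL1-FL peaks of Emx2 were 5 or 6 fragments deep. At Lhx2 both control peaks lay upstream of the start, and 5 of the 6 MICAL1-FL peaks lay in the gene.

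**Figure D4:**
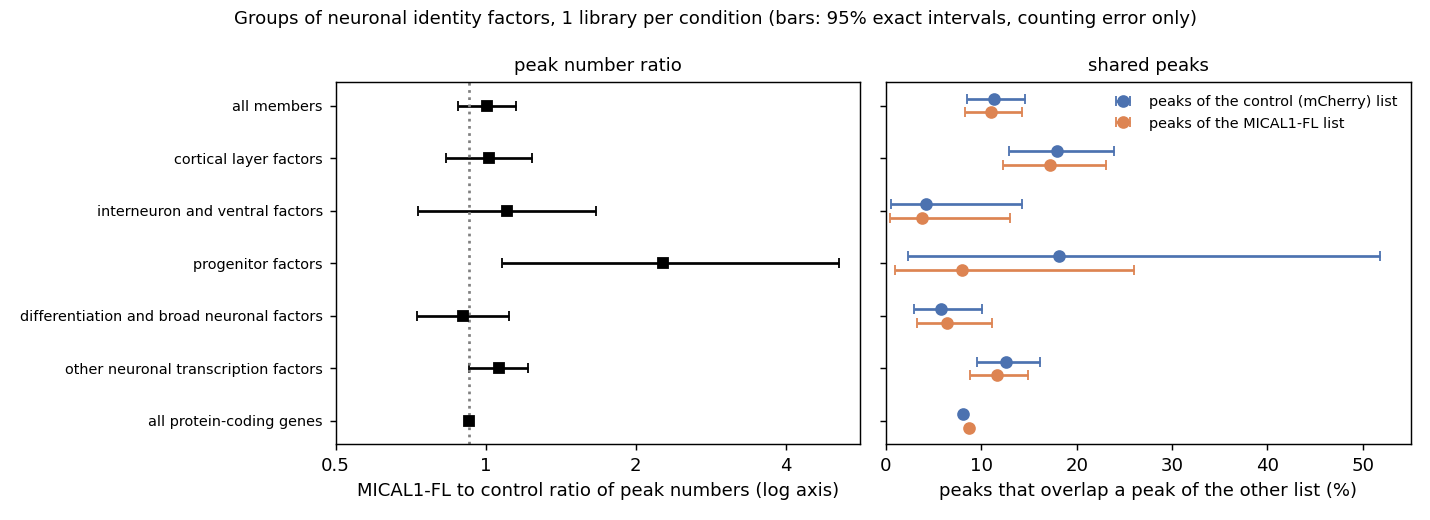
Left, the MICAL1-FL to control ratio of peak numbers (logarithmic axis) with the ratio of all protein-coding genes as a dotted line; right, the percentage of peaks that overlap a peak of the other list. Bars are 95% exact intervals of counting error; the progenitor ratio of 2.27 stands above the others, and the shares of the layer factors are 17.9% and 17.2%.

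The differentiation and broad neuronal factors had 191 control peaks and 172 MICAL1-FL peaks, with a ratio of 0.901 (0.729 to 1.11). Tcf4, a bHLH factor that pairs with proneural proteins, had 45 and 37 peaks, or 127 and 104 per Mb. Zbtb20, a zinc finger factor of hippocampal neurons, had 41 and 29 peaks. Myt1l, a zinc finger factor that represses non-neuronal genes, had 36 and 33. The 4 longest genes of this group, Zbtb20, Nfia, Myt1l and Tcf4, all had more control peaks, by up to 12 peaks, and each interval included 1. Nfib and Mef2c, the next in length, had more MICAL1-FL peaks. In the whole group 5 genes had more control peaks, 4 more MICAL1-FL peaks and 1 equal counts. Over all protein-coding genes, 7690 had more control and 6285 more MICAL1-FL peaks.

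The nuclear factor I genes, which promote gliogenesis and neuron maturation, had 33 and 28 peaks at Nfia, 15 and 20 at Nfib and 11 and 6 at Nfix. Mef2c, an activity-dependent MADS-box factor, had 7 and 14 peaks, or 2.00 times as many in MICAL1-FL neurons (0.755 to 5.86). The short bHLH genes had few peaks: Neurod1 and Neurod6 had 1 and 2 each, and Neurod2 had 1 and 1. Of the 5 control peaks of members with the smallest p, 4 lay in this group and 1 at Foxp1. The one at Myt1l, with the smallest p of all members, at chromosome 12 29538928 to 29539407, was 11 fragments deep with a fold of 4.43 and a q of 0.00838. Another at Tcf4, at chromosome 18 69501630 to 69502003, was 10 fragments deep with a q of 0.0338, equal to that at the Foxp1 start. At Nfib a control peak of 11 fragments covered chromosome 4 82506225 to 82507325, with a p of 8.1e-06, and at Nfia one of 9 fragments covered 97621514 to 97621855. None of these 4 overlapped a MICAL1-FL peak, where 5.76% of the group's control peaks and 8.06% of those at all protein-coding genes did. Such overlap is rare, so its lack at 4 peaks is not read as a difference between conditions.

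**Figure D5:**
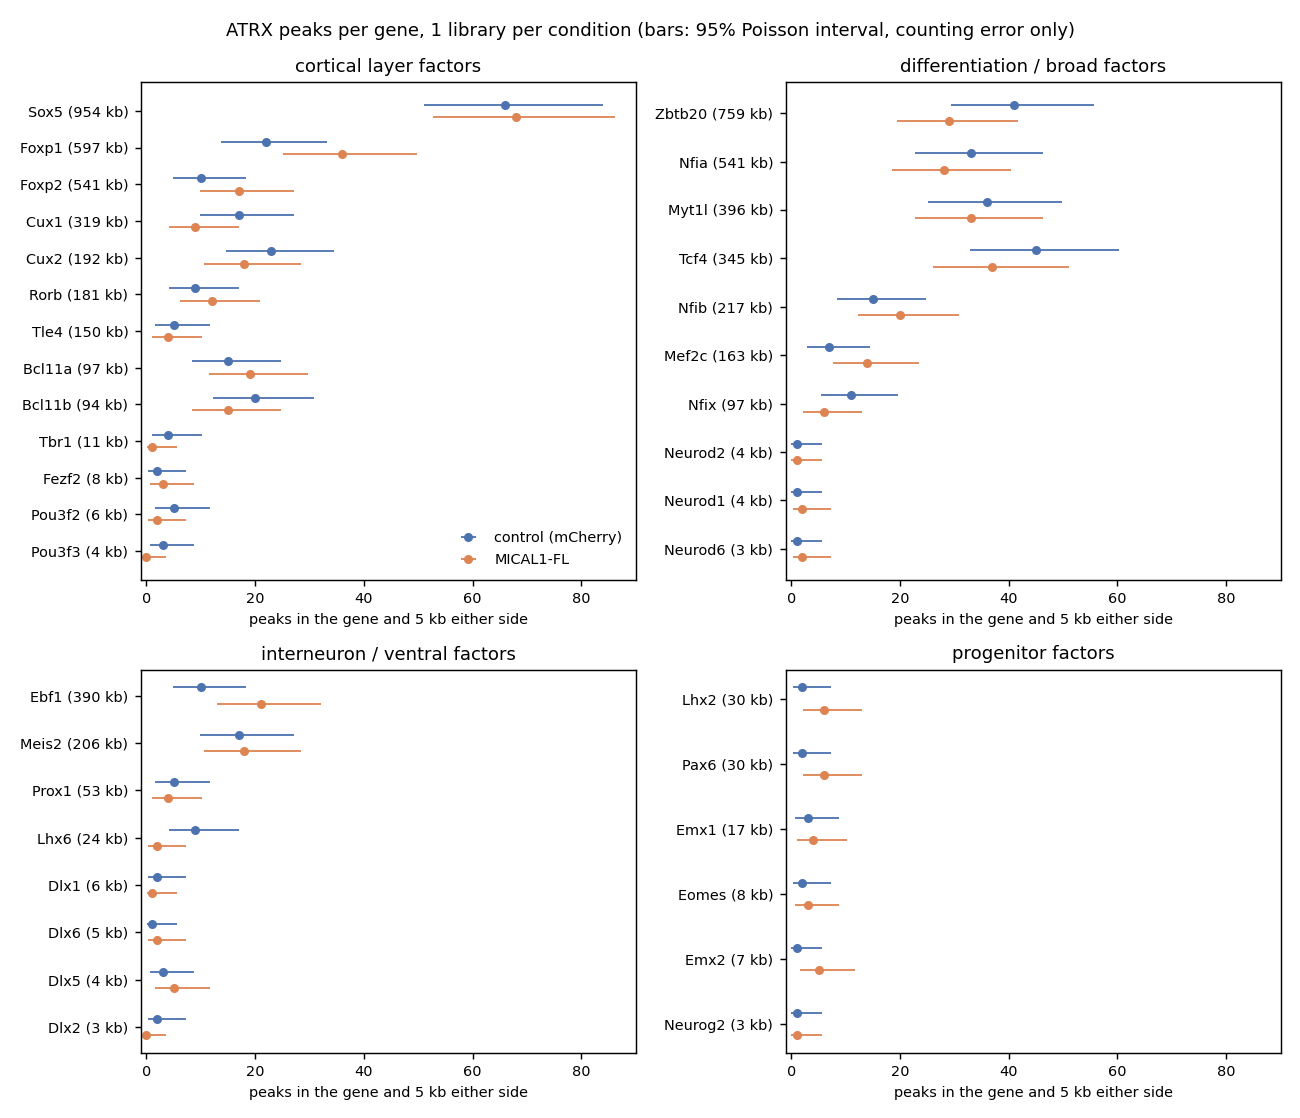
Peaks per member in the gene and 5 kb either side (horizontal axis) for the 4 groups, ordered by gene length, in the control and MICAL1-FL lists. Bars are 95% Poisson intervals of counting error, which overlap between the libraries at every member, Sox5 (66 and 68) having the most peaks.

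Over all members, 19 had more MICAL1-FL peaks (background 28.7%), 16 had more control peaks (background 35.1%) and 2 had equal counts (background 36.1%). All of these backgrounds include the 22.9% of protein-coding genes with no peak in either list, while every member had a peak. The member counts are thus not like for like with them. Of all protein-coding genes, 6285 had more MICAL1-FL and 7690 more control peaks. The summed ratio was 1.01 (0.882 to 1.15). Of the 29 members with 5 or more peaks, 5 had at least 2 times as many MICAL1-FL as control peaks, or 17.2% (background 13.5%): Ebf1, Emx2, Lhx2, Mef2c and Pax6. At least 2 times as many control peaks were found at 3, or 10.3% (background 19%): Lhx6, Pou3f2 and Tbr1. The interval of no member's ratio left out 1. Both shares are near or below the background and carry no replicate check.

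After the peaks at Dlx5 and Foxp2, the MICAL1-FL peaks of members with the smallest p were at Sox5 and Pou3f2. The one at Sox5, 9 fragments deep at chromosome 6 144516258 to 144517040, had a p of 1.3e-05, and the one at the Pou3f2 start, described above, 3.0e-05. Next came 8 peaks of 8 fragments with a p of 4.9e-05 each, at Bcl11a, Foxp1 (2 peaks), Rorb, Nfia, Nfib, Tcf4 and Pax6. The Bcl11a peak, at chromosome 11 24088009 to 24088496, overlapped a control peak of 5 fragments. Peaks of 4 or 5 fragments made up 55.4% of the members' control peaks and 57.3% of their MICAL1-FL peaks.

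Another 65 neuronal transcription factors, such as Sox11 and Zeb2, gave similar values. They had 422 and 448 peaks, with a ratio of 1.06 (0.927 to 1.22), at 62.6 and 66.5 peaks per Mb. End peaks were at 37 and 36 of them and in both lists at 20. Their shared peaks were 12.6% (9.55 to 16.1) of control and 11.6% (8.79 to 14.9) of MICAL1-FL peaks. Markers of other cells that a neuron culture can hold, 26 genes of glia, microglia and vessels, had 84 and 85 peaks at 76.6 and 77.6 per Mb. Both lists of genes lay above the 45.9 and 42.5 per Mb of all protein-coding genes, as the identity factors did.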

How the data were processed

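Deposited ATRX ChIP-seq peak lists were used, 1 per ChIP sample. The submitters' processing notes name ChIPseeker 1.26.2, MACS 1.4.2, SAMtools 1.9 and Bowtie 1.3.0 without saying what each did. No label or note states a threshold or genome build. The deposited fold of a peak is a ratio to background, as the authors' caller gave it. The deposited −log10 p and −log10 q values are the authors' too, with largest p of 0.0498 and 0.0496, and the deposited score is the whole part of 10 times −log10 p. Folds were not compared between lists.

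The build was settled from the data: summits within 500 bp of GRCm38.p6 RefSeq starts were 4.10 (control) and 4.34 (MICAL1-FL) times as dense as those 2500 to 5000 bp away. All 37 symbols matched the gene table. Depth was inferred by taking fold as (pileup + 1) / (background + 1) and p as a Poisson tail, within 0.01 of −log10 p; no label states this. Peaks counted when they overlapped a span by 1 bp, and an end peak when it came within 1 kb of an end. Ratios have exact conditional binomial intervals, shares Clopper-Pearson and counts Poisson intervals. No test between conditions was possible. Members and lists were chosen with earlier results of these data known. The named genes are, in each group, the 3 with the most peaks, those with a 2-fold difference or end peaks in both lists, those with the 5 smallest p of each list, and pairs of overlapping peaks with p of 0.01 or less, given by gene with examples. Depth recovery was tested on simulated data (Python 3.11.15, SciPy 1.17.1), where 100% of 4875 depths were recovered. The simulation used the same formulas, so it cannot show that the deposited values follow them. Counting was checked on the control list at 300 genes, with 0 mismatches.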

Additional observations from a re-analysis of the deposited data

How the results depend on the processing

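Of 46 alternatives, 35 kept their value within 1.5 times or within the counting interval, 11 moved and 0 reversed. The ratios of the 4 groups and of all members stayed within their intervals under every alternative run. With 500 bp windows at gene ends, 14 members had a control end peak (all genes 21.8%), 14 a MICAL1-FL end peak (21.1%) and 5 both (7.67%). With 3 kb windows 29 had both (all genes 25%). Shared peaks fell to 6.87% and 6.83% when summits had to lie within 250 bp, and to 4.66% and 4.63% when 50% of both peaks had to overlap. The shares of all protein-coding genes given above, 8.06% and 8.69%, are for any overlap and cannot be set against these stricter shares. Of the 18 members with 10 or more peaks, 2 had at least 2 times as many MICAL1-FL (all genes 7.57%) and 1 at least 2 times as many control peaks (all genes 11.9%). With no flank 1 of 22 members had at least 2 times as many control peaks (all genes 18.4%). These follow from narrower or wider windows, stricter overlap and fewer members. Leaving out the member with the most peaks was added after the data were seen. No paired analysis was possible because each condition had 1 library. Depths of 4 to 11 fragments limit every single peak.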

Other observations

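Outside the members, a few of the 65 other neuronal transcription factors had unequal counts. Zeb2, a zinc finger homeobox factor of migrating interneurons and projection neurons, had 8 control and 21 MICAL1-FL peaks, and a ratio of 2.62 (1.12 to 6.85). Tcf12, a bHLH partner of proneural factors, had 2 and 13, a ratio of 6.50 (1.47 to 59.3). Bach2, a leucine zipper repressor chosen after its values were seen, had 53 and 27, a ratio of 0.509 (0.308 to 0.825). Of the 27 with 10 or more peaks, 2 had at least 2 times as many MICAL1-FL (all genes 7.57%) and 0 at least 2 times as many control peaks (all genes 11.9%). The spans of 9 members also held another protein-coding gene, such as Elp4 beside Pax6 and Psmd14 beside Tbr1, and peaks there were counted for the member.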
